A study of Mus musculus with 20 samples.

Results

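The Slco genes encode organic anion transporting polypeptides, carriers in the plasma membrane that bring bile salts, conjugated steroids, thyroid hormones, prostaglandins and many drugs into cells. The 6 members described here, Slco1a1, Slco1a4, Slco1b2, Slco2a1, Slco2b1 and Slco3a1, were taken by gene symbol from the 25444 loci of the deposited gene tables, which list 15 genes with an Slco symbol in all. RNA-seq was performed on the left lateral lobe of the liver from 20 mice aged 20 weeks, 5 in each of 4 groups: C57BL/6N (B6) females, B6 males, C3H/HeN (C3) females and C3 males. No mouse carried an engineered allele or received a test agent. Mice of both strains were singly housed and were changed to the NTP2000 diet before collection, and each sex had its own room, so a difference between sexes and one between rooms cannot be told apart. Libraries were made from ribosomal RNA-depleted total RNA and sequenced in 3 pools, which entered every fit as a covariate.

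In the liver, Slco1a1, Slco1a4 and Slco1b2 are known as carriers of the sinusoidal membrane of hepatocytes, the face that meets the blood. Slco1b2 is the mouse counterpart of the human hepatic carriers that clear bilirubin, bile acids and statins. Slco1a1 and Slco1a4 carry bile salts and steroid conjugates, and Slco1a4 also carries cardiac glycosides. Slco2a1 is the prostaglandin transporter, Slco2b1 carries steroid sulfates, and Slco3a1 is a widely expressed family member. The 4 groups addressed how far the level of each carrier differed between the sexes within each strain and between the strains within each sex.

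The 3 Slco1 members lie in one stretch of chromosome 6 (mm9), with Slco1b2 at chr6:141578039-141635156 on the plus strand, Slco1a4 at chr6:141753961-141804692 on the minus strand and Slco1a1 at chr6:141855802-141895483 on the minus strand. Slco1a4 and Slco1a1 are separated by 51109 bases. The other members are apart from them, Slco2a1 at chr9:102910819-102990179 on the plus strand, Slco2b1 at chr7:106806314-106859850 on the minus strand and Slco3a1 at chr7:81420304-81699666 on the minus strand. The stretches upstream of the 3 hepatocyte carriers are shown because these neighbours on 1 chromosome differed in the direction of their sex difference. Each is read 5′ to 3′ on the strand of its gene from the mm9 genome and ends at the base before the listed start, except that the Slco1a4 stretch stops 29 bases before it, where an annotated exon of another Slco1a4 transcript begins. Capitals mark any match on either strand to 5 short motifs. The growth hormone-activated factor STAT5 is known to bind TTCNNNGAA. The hepatocyte factor HNF1 was searched as GTTAAT, the hepatocyte factor HNF4 was searched as CAAAGT, the half-site of nuclear receptors was searched as AGGTCA, and the TATA box of core promoters was searched as TATAAA. The marked matches do not overlap each other.
Slco1a1, chr6:141895484-141895733, minus strand: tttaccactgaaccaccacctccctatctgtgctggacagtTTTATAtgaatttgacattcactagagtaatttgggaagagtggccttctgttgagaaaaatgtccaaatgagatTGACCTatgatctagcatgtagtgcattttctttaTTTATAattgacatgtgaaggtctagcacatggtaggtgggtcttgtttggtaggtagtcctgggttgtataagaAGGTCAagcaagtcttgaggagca
Slco1a4, chr6:141804721-141804942, minus strand: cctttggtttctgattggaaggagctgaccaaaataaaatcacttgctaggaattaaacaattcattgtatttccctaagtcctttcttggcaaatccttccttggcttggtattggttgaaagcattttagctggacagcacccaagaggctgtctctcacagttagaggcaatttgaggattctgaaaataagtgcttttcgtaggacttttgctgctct
Slco1b2, chr6:141577789-141578038, plus strand: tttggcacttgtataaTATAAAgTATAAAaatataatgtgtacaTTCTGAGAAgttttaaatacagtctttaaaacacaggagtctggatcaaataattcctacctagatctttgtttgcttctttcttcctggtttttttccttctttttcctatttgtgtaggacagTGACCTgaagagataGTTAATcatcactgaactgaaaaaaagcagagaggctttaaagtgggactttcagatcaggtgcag

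The Slco1a1 stretch held 2 nuclear receptor half-sites and 2 TATA matches, and the Slco1b2 stretch held 1 STAT5 match, 1 HNF1 match, 1 half-site and 2 TATA matches. None of these letters occurred in the whole window of 250 bases before the Slco1a4 start. Over 25280 such windows of all listed genes, the STAT5 letters were in 6.74%, HNF1 in 5.55%, HNF4 in 11.5%, the half-site in 12.6% and TATAAA in 12.3%. Among the other members, only Slco2a1 held any of them, 1 TATA match that began 31 bases before its start. The TATA matches of Slco1a1 were on the opposite strand, 209 and 99 bases before its start. Those of Slco1b2 began 234 and 227 bases before its start. The coding sequences of Slco1a1 and Slco1a4 were 86.6% identical in the aligned bases, whereas every other pair of members lay between 58.1% and 64.7%. Windows of 125 bases, the read length, were identical to a window of another gene in 8 of 3271 positions of the Slco1a1 transcript and 16 of 3699 of the Slco1a4 transcript, and in none for the other members. The authors did not count multimapping reads.

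Total counts per library ranged from 27370921 to 46835745, and the 3 counts taken as the detection floor corresponded to 0.0641 to 0.110 CPM (counts scaled to library size). Replicates correlated at 0.972 to 0.993 (40 pairs, log2 CPM over genes) and none agreed within sampling noise. Xist and Ddx3y placed all 20 libraries with their labelled sex. The 9 hepatocyte markers, Alb among them, summed to between 89818 and 184626 TPM (transcript counts scaled for length and depth) in every liver. In bulk tissue, fewer cells of a type and less RNA per cell cannot be told apart.

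The members covered a wide range of levels, in TPM, which is scaled per transcript length. Slco1b2 was the most abundant in all 4 groups, at 1105 ± 80.7 TPM in females and 1247 ± 130.5 TPM in males of B6, and 885 ± 56.1 TPM in females and 1109 ± 134 TPM in males of C3 (SD, n = 5). Slco1a1 came second by mean in every group and Slco3a1 last, at 1.08 to 1.66 TPM on average and 79 to 200 counts per library. Between them, the order depended on sex. In B6 females Slco1a1, Slco1a4 and Slco2b1 overlapped with each other, and in C3 females Slco1a4 overlapped with both of the other genes. In males of both strains Slco2b1 lay above Slco1a4 without overlap, and Slco1a4 and Slco2a1 overlapped.

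**Figure D1:**
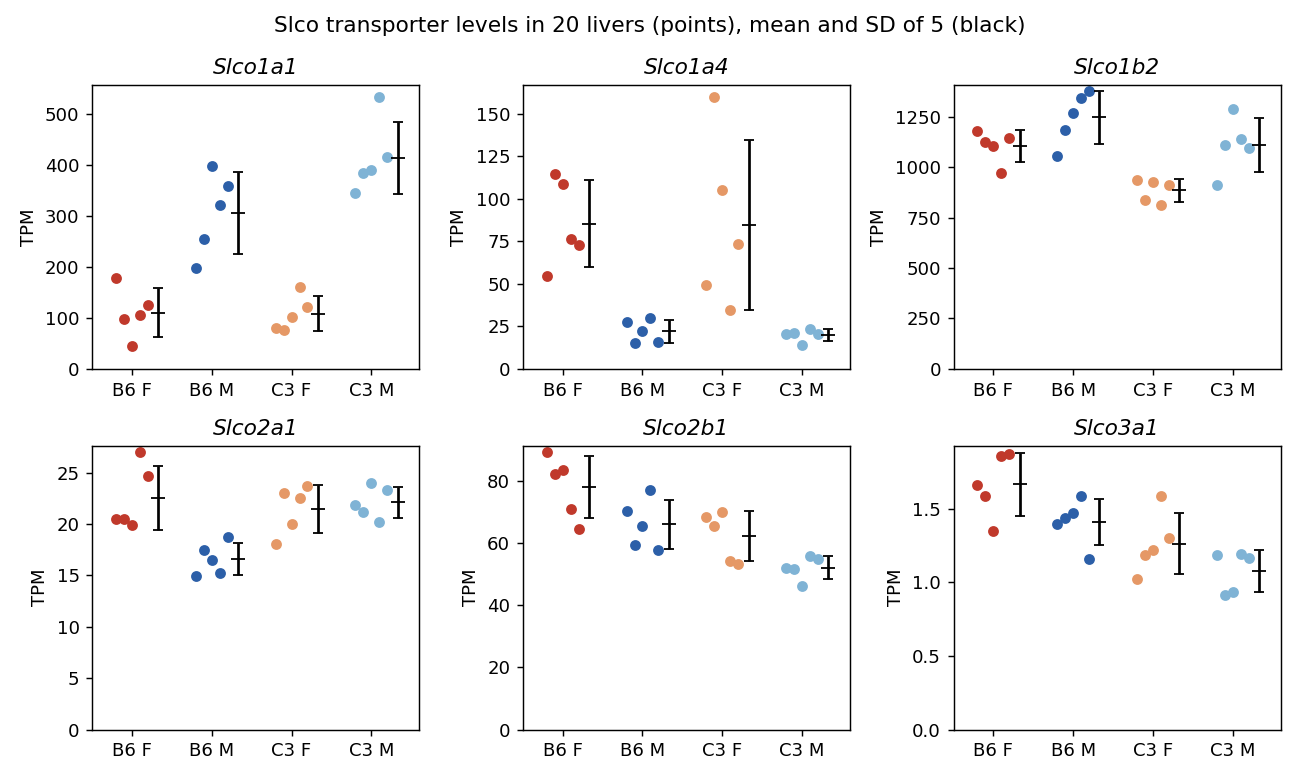
TPM of each member (vertical axes, linear, each panel with its own range from 0) in each of 20 livers by group, with points for single livers and black bars for the mean and SD of 5. Slco1a1 lies higher in the males of both strains and Slco1a4 higher in the females, with no overlap between sexes, while Slco2a1 stands lowest in B6 males (16.6 TPM on average).

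The 9 other genes with an Slco symbol were close to or at 0. Slco6b1, Slco6c1 and Slco6d1 had no count in any of 20 libraries, which allows up to 3 counts per library. Slco4a1 had at most 20 counts in a library, and the others (Slco1a5, Slco1a6, Slco1c1, Slco4c1 and Slco5a1) at most 9. None of the 9 passed the filter on low counts, so the tests below concern the 6 members, all of which passed it.

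Genes were called where the adjusted p of edgeR's quasi-likelihood test (Benjamini-Hochberg over 13704 genes) fell below 0.001 and the log2 fold change was larger than 0.5 in either direction. By this rule 2 of 6 members were called between females and males in B6, against 6.34% of all genes tested, and 2 of 6 in C3, against 6.90%. They were Slco1a1, lower in females, and Slco1a4, higher in females, in both strains. In 1 direction, 3.23% of all genes were called higher in B6 females and 3.12% lower, and 4.11% were called higher in C3 females and 2.79% lower. Between strains, no member was called in females, where 9.40% of all genes were, or in males, where 9.64% were (4.63% higher and 4.77% lower in C3 females, and 4.09% higher and 5.55% lower in C3 males). By an adjusted p under 0.05 alone, 4 of 6 members passed for sex in B6 (34.6% of all genes), 3 of 6 for sex in C3 (40.0%), 2 of 6 for strain in females (32.9%) and 3 of 6 for strain in males (34.5%). The median log2 fold change of the members, female over male, was 0.12 in B6 and -0.03 in C3, beside medians over all genes of 0.0018 and 0.01. For C3 over B6 it was -0.15 in females and -0.04 in males, beside 0.02 and 0.01.

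**Figure D2:**
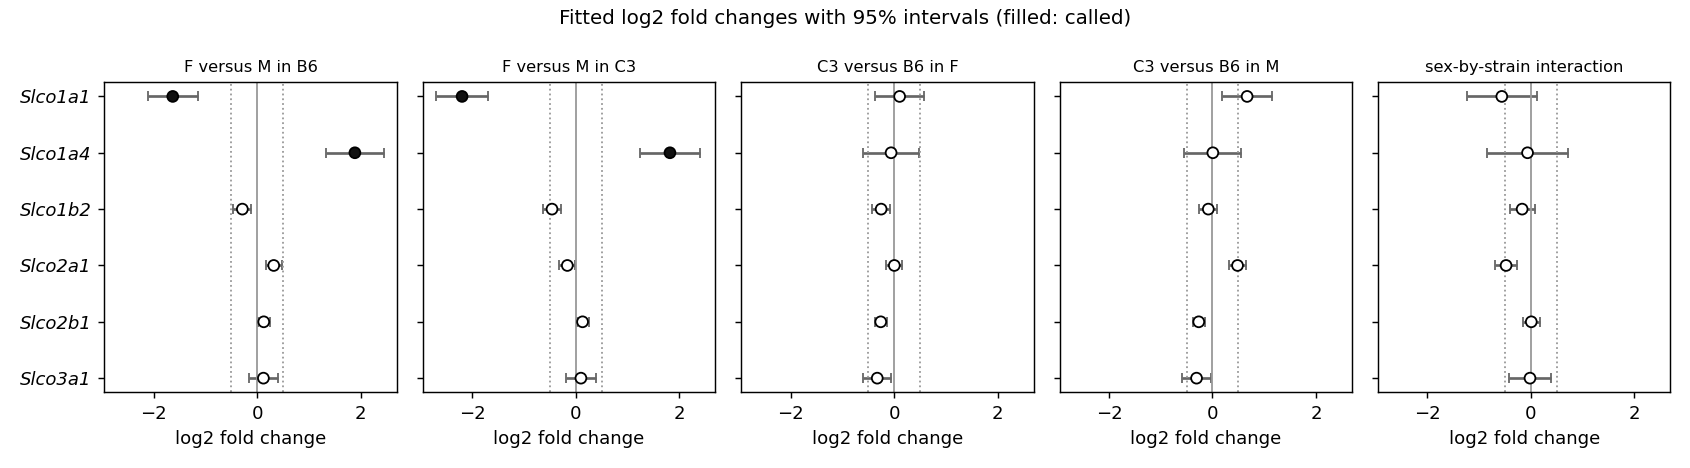
Fitted log2 fold changes on the CPM scale (horizontal axes) with 95% confidence intervals for the 6 members in the 4 comparisons and in the sex-by-strain interaction, the C3 female-to-male change minus the B6 one. Filled points were called, open points were not, and dotted lines mark 0.5 in either direction. Slco1a1 and Slco1a4 alone are filled, at -1.63 and 1.89 in B6 and -2.20 and 1.82 in C3.

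Slco1a1, a carrier of bile salts and conjugated steroids, was higher in males. It measured 178, 97.8, 45.0, 107 and 125 TPM in the B6 female livers and 199, 256, 399, 322 and 359.6 TPM in the B6 male livers. Every B6 male liver exceeded every B6 female liver, although the highest female and the lowest male were close. The fitted log2 fold change, female over male, was -1.63 (SE 0.23, edgeR adjusted p = 3.4e-05), which is 3.10-fold higher in males. In C3, the females measured 80.1, 76.9, 101, 161 and 122 TPM and the males 345, 386, 390.4, 533 and 416 TPM. The C3 sexes were well apart, with a log2 fold change of -2.20 (SE 0.24, adjusted p = 1.7e-06), or 4.58-fold higher in males. Within pools 1, 2 and 3, the female-minus-male log2 difference was -1.52, -2.22 and -1.57 in B6 and -1.55, -2.35 and -2.75 in C3. Pool 2 held 1 liver of each group except C3 males, and pool 3 held 1 C3 male. Values within these pools, here and below, therefore rest partly on single livers.

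Slco1a4, which carries bile salts and cardiac glycosides, was higher in females. The B6 female livers measured 54.7, 115, 108, 76.4 and 72.7 TPM and the B6 male livers 27.6, 15.4, 22.1, 29.7 and 15.6 TPM. These groups did not overlap, and the log2 fold change was 1.89 (SE 0.26, edgeR adjusted p = 2.9e-05), or 3.70-fold. C3 females measured 49.2, 159.8, 105, 34.4 and 73.8 TPM, against 20.8, 21.0, 14.3, 23.3 and 20.2 TPM in C3 males. The C3 females were widely spread (84.5 ± 49.9 TPM) while the C3 males were tight (19.9 ± 3.35), and their log2 fold change was 1.82 (SE 0.27, adjusted p = 6.5e-05), or 3.54-fold. The differences within pools 1, 2 and 3 were 2.14, 1.895 and 1.501 in B6 and 1.45, 1.15 and 2.32 in C3.

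Between strains neither gene was called, and the groups overlapped in both sexes. C3 over B6 gave 0.11 for Slco1a1 in females (95% interval -0.37 to 0.59, edgeR adjusted p = 0.762) and 0.67 in males (0.18 to 1.16, adjusted p = 0.0330), the latter with an adjusted p of 0.237 without the pool covariate. For Slco1a4 it gave -0.06 in females (-0.60 to 0.48, adjusted p = 0.893) and 0.0069 in males (-0.54 to 0.56, adjusted p = 0.987).

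The size of these sex differences was not shown to depend on strain. The interaction was -0.56 for Slco1a1 (95% interval -1.24 to 0.11, edgeR adjusted p = 0.418) and -0.06 for Slco1a4 (-0.85 to 0.72, adjusted p = 0.964). Across all genes 0.401% were called for the interaction, and no member was. Within pools the Slco1a1 interaction was -0.04, -0.13 and -1.18. Pool 3 stood apart. In pools 1, 2 and 3, C3 over B6 for Slco1a1 was 0.37, 0.86 and -0.51 in females and 0.41, 0.99 and 0.67 in males. The only C3 male of pool 3 was replicate 4, the liver with the most Slco1a1 (533 TPM). Why pool 3 differed was not tested. The Slco1a4 interaction within pools was -0.68, -0.75 and 0.82, with pool 3 of the opposite sign.

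The ratio of Slco1a1 to Slco1a4 was higher in every male than in every female of both strains. Slco1a1 TPM was 1.53 times that of Slco1a4 on average in B6 females (range 0.415 to 3.25) and 1.88 times in C3 females (0.482 to 4.66). In males the mean ratio was 15.1 in B6 (7.20 to 23.0) and 21.1 in C3 (16.6 to 27.3).

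**Figure D3:**
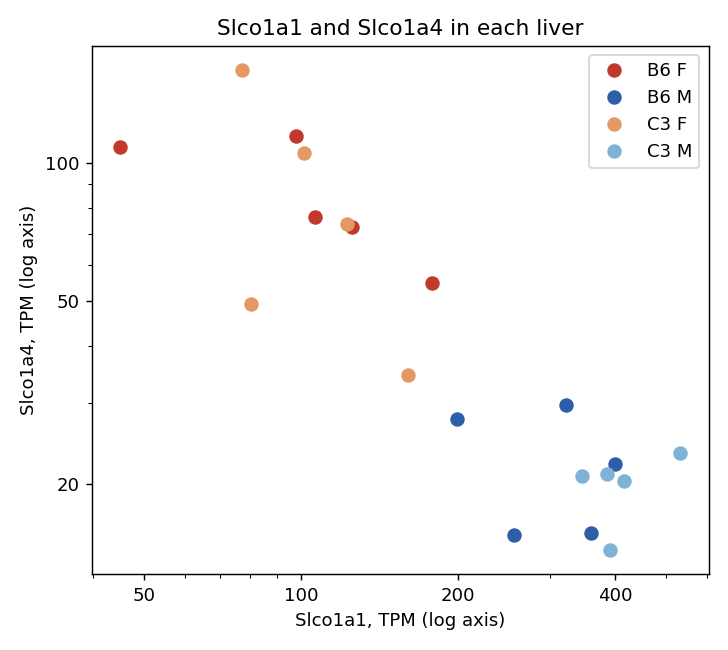
Slco1a1 (horizontal) against Slco1a4 (vertical) in each of 20 livers, both in TPM on log axes, coloured by group. Female livers fill the upper left, with Slco1a4 of at least 34.4 TPM, and male livers the lower right, with Slco1a4 of at most 29.7 TPM and Slco1a1 of at least 199 TPM.

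Among females, livers with more Slco1a1 tended to have less Slco1a4. With strain means removed, log2 CPM of both genes had Pearson's r = -0.66 over the 10 female livers (exact permutation within strains, p = 0.0249, adjusted p = 0.107 over 30 relations) and Spearman's rho = -0.85 (exact p = 0.0093, adjusted p = 0.115). Neither value passed the adjustment. Without the 2 livers farthest from the median Slco1a1 level r was -0.67, and with pool means also removed it was -0.99. In males the same pair had r = -0.13 and rho = 0.0. Other female pairs had smaller exact permutation p, and none passed the adjustment. They were Slco2a1 with Slco3a1 (r = 0.78, p = 0.0090), Slco1a1 with Slco3a1 (r = 0.74, p = 0.0127) and Slco2a1 with Slco2b1 (r = -0.77, p = 0.0207). With pool means also removed, the r of these pairs was -0.02, 0.45 and 0.18, so they did not hold as they stood.

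The largest Pearson values of the 30 relations were found among males, again over 10 livers. Slco1a4 and Slco2b1 had r = 0.96 (exact permutation p = 0.0013, adjusted p = 0.0198) and rho = 0.80 (exact p = 0.0192, adjusted p = 0.115). Slco1a4 and Slco2a1 had r = -0.94 (exact p = 0.00069, adjusted p = 0.0198) and rho = -0.90 (exact p = 0.0043, adjusted p = 0.115), and Slco2a1 and Slco2b1 had r = -0.89 (exact p = 0.0043, adjusted p = 0.0431) and rho = -0.80 (exact p = 0.0192, adjusted p = 0.115). Leaving out the 2 livers farthest from the median of the first-named gene gave r of 0.94, -0.96 and -0.81. With pool means removed the values were 0.89, -0.93 and -0.87. The Pearson values of these 3 pairs passed the adjustment and the rank values did not.

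Slco1b2, the liver-specific carrier of bile acids and bilirubin, was not called in any comparison. C3 females measured 937, 836, 924, 814 and 913 TPM and C3 males 911, 1110.0, 1287, 1138 and 1096 TPM. The sexes overlapped through 1 C3 male in TPM and did not overlap in CPM. The log2 fold change was -0.46 (SE 0.08, edgeR adjusted p = 3.9e-04), past the p threshold and short of the fold threshold. Without C3 female replicate 1 it was -0.53 and without C3 male replicate 1 it was -0.51, and the gene was then called. In B6 the females measured 1181, 1126, 1103, 969.8 and 1145 TPM and the males 1055, 1186, 1270.0, 1344 and 1379 TPM, overlapping, with a log2 fold change of -0.29 (SE 0.08, adjusted p = 0.0111). Between strains, every C3 female lay below every B6 female, with a log2 fold change of -0.25 (SE 0.08, adjusted p = 0.0245), and in males it was -0.08 (SE 0.08, adjusted p = 0.480).

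Slco1b2 accounted for most of the summed TPM of the 6 members, at 78.8% ± 1.60 in females and 75.3% ± 2.30 in males of B6, and 76.1% ± 3.40 in females and 68.5% ± 3.24 in males of C3 (SD, n = 5). The sum was 1403 ± 102 TPM in females and 1659.8 ± 200.3 TPM in males of B6, and 1163 ± 49.8 TPM in females and 1618 ± 170.2 TPM in males of C3. Slco1a1 supplied 7.80%, 18.3%, 9.38% and 25.6% of it in these groups, and Slco1a4 6.14%, 1.36%, 7.20% and 1.25%. The summed levels of the B6 sexes overlapped and those of the C3 sexes did not.

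**Figure D4:**
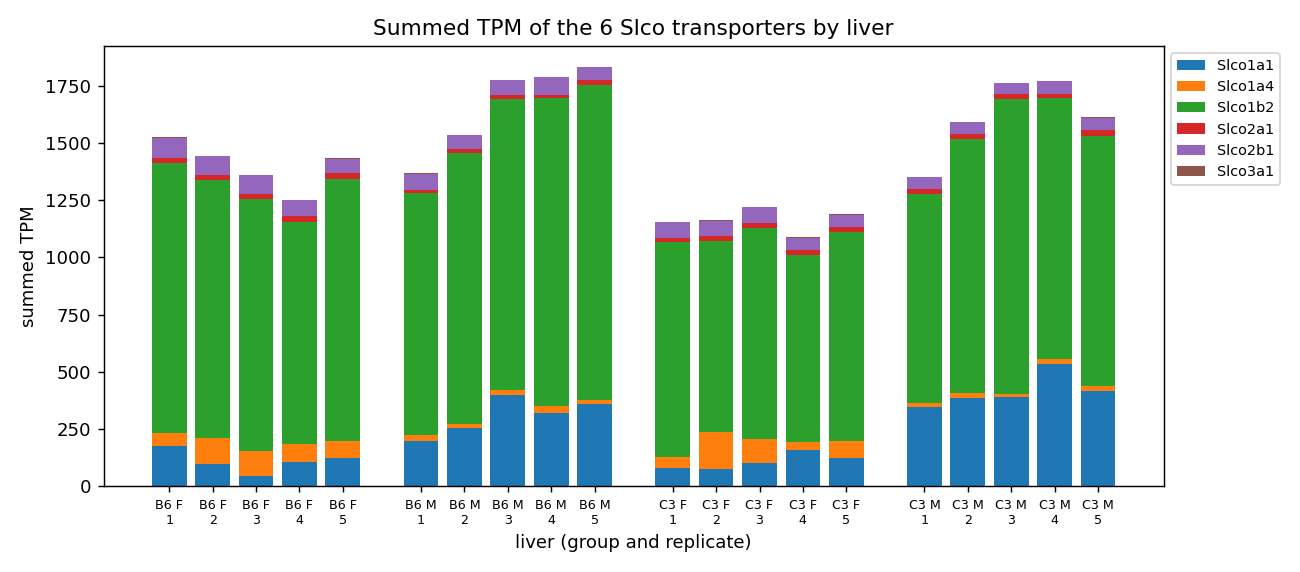
Summed TPM of the 6 members (vertical axis, linear from 0) in each liver, stacked by gene, with livers ordered by group and replicate number. Slco1b2 is the largest part of every bar, and the Slco1a1 part is larger in the male bars.

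Slco2a1, the prostaglandin transporter, stood lowest in B6 males. B6 females measured 20.5, 20.5, 19.9, 27.01 and 24.6 TPM, B6 males 15.0, 17.5, 16.5, 15.2 and 18.8 TPM, C3 females 18.1, 23.0, 20.0, 22.6 and 23.7 TPM, and C3 males 21.9, 21.1, 23.9, 20.2 and 23.3 TPM. The B6 males lay below every C3 male, and below every B6 female in TPM but not in CPM. C3 over B6 in males gave a log2 fold change of 0.48 (SE 0.07, edgeR adjusted p = 5.5e-05), just short of the fold threshold. The gene was called without B6 male replicate 3 (0.51), B6 male replicate 5 (0.50) or C3 male replicate 2 (0.53). In females the same contrast gave 0.0048 (SE 0.07, adjusted p = 0.971).

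The sex difference of Slco2a1 was 0.32 in B6 (SE 0.07, edgeR adjusted p = 0.0027) and -0.16 in C3 (SE 0.07, adjusted p = 0.0925). The interaction was -0.48 (95% interval -0.70 to -0.26, adjusted p = 0.0147), which passed 0.05 and not 0.001, and 2.96% of all genes had an adjusted p under 0.05 for the interaction. It was -0.43, -0.77 and -0.31 in pools 1, 2 and 3. Without the pool covariate the value was nearly the same and the adjusted p was 0.239.

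Slco2a1 is also known from endothelial cells. The 10 endothelial markers summed to 386 to 461 TPM in females and 292 to 341 in males of B6, and 334 to 387 in females and 266 to 310.3 in males of C3, and 9 of 10 had an adjusted p under 0.05 with higher levels in females in each strain. None was at 0 in any group. Between strains, 6 of 10 had an adjusted p under 0.05 in each sex, all lower in C3, and Lyve1 was called in females. For the interaction none of 10 had an adjusted p under 0.05. The shares of all genes with an adjusted p under 0.05 were 34.6% for sex in B6 and 40.0% in C3. They were 32.9% for strain in females, 34.5% for strain in males and 2.96% for the interaction. The part of endothelial RNA in the Slco2a1 levels was not tested.

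Slco2b1, a carrier of steroid sulfates, was not called in any comparison. The B6 livers measured 89.1, 82.2, 83.5, 70.9 and 64.4 TPM in females and 70.3, 59.4, 65.3, 76.9 and 57.9 TPM in males. The C3 livers measured 68.3, 65.5, 69.9, 54.3 and 53.3 TPM in females and 52.0, 51.5, 46.2, 55.8 and 54.7 TPM in males. Females and males overlapped in both strains, with log2 fold changes of 0.13 in B6 (95% interval 0.01 to 0.24, edgeR adjusted p = 0.0814) and 0.13 in C3 (0.02 to 0.25, adjusted p = 0.0626). C3 over B6 was -0.26 in females (SE 0.05, adjusted p = 0.0012) and -0.27 in males (SE 0.06, adjusted p = 0.0010), short of both thresholds. Every C3 male lay below every B6 male, whereas the females overlapped. Within pools the strain difference was -0.24, -0.26 and -0.27 in females and -0.21, -0.33 and -0.25 in males, and its interaction with sex was 0.0076 (-0.15 to 0.17).

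Slco3a1 was measured at 0.913 to 1.87 TPM in the 20 livers. Its log2 fold changes were 0.12 and 0.10 between females and males in B6 and C3, with edgeR adjusted p of 0.504 and 0.581. C3 over B6 gave -0.33 in females (SE 0.13, adjusted p = 0.0644) and -0.31 in males (SE 0.14, adjusted p = 0.0895). In each of these comparisons its groups overlapped. The 95% intervals of the sex differences, -0.15 to 0.39 and -0.19 to 0.39, did not reach the fold threshold.

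Counting members whose groups did not overlap in log2 CPM gave 2 of 6 for sex in B6 (10.9% of all genes), 3 of 6 for sex in C3 (13.1%), 1 of 6 for strain in females (12.8%) and 2 of 6 for strain in males (15.1%). The sex and strain comparisons share libraries and are not independent of each other.

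Around the Slco1 members, 15 genes including the Slco genes lie within 500 kb, and 7 of the 9 without an Slco symbol were tested. Of these 7, only Gm6614, a predicted gene at chr6:141920717-141957266 on the minus strand between Slco1a1 and Slco1a6, was called in any comparison. Whether reads of Slco1a1, which had up to 45760 counts, were assigned to Gm6614 was not tested. It had 4, 1, 0, 0 and 1 counts in B6 females and 2, 12, 12, 12 and 14 in B6 males. In C3 it had 0, 0, 3, 0 and 0 counts in females and 7, 4, 13, 17 and 7 in males. The edgeR adjusted p was 7.5e-04 in B6 and 3.1e-04 in C3, higher in males as was Slco1a1. Relative to total counts, the summed male counts were 9.44 times the female in B6 (95% counting interval 4.06 to 26.9) and 17.2 times in C3 (5.55 to 86.4), intervals that cover counting error only. The genes on the other side of the stretch, Pde3a and Gm10400, were not called.

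**Figure D5:**
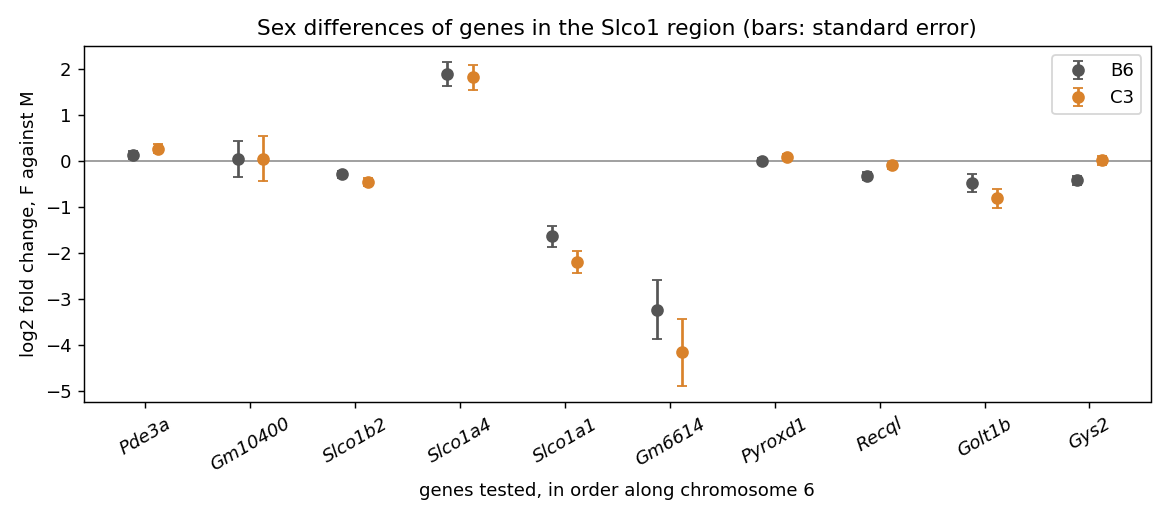
Fitted log2 fold change, female over male (vertical axis), of the 10 genes tested within 500 kb of the Slco1 members, in their order along chromosome 6 (horizontal axis, not to scale), with bars for the standard error. Slco1a4 is positive, Slco1a1 and the low-count Gm6614 are negative in both strains, and the remaining genes lie closer to 0.

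For each member, the 3 tested genes with the highest Pearson's r of log2 CPM over the 20 livers were found. These values are descriptions, since all livers share the differences between groups. Slco1a1 was most like Serpina1e (r = 0.97), an alpha-1-antitrypsin gene with near-identical paralogs whose reads are therefore uncertain, Nudt7 (0.97), a peroxisomal coenzyme A hydrolase, and Hsd3b5 (0.97), a hydroxysteroid dehydrogenase of male liver. Slco1a4 was most like Idh2 (0.93), the mitochondrial isocitrate dehydrogenase, Bche (0.93), butyrylcholinesterase, and Slc16a7 (0.92), a monocarboxylate carrier. The highest values for Slco1b2 were with Serpine2 (0.90) and the major urinary protein genes Mup3 (0.89) and Mup20 (0.88), and those for Slco2b1 with Slc27a1 (0.94), a fatty acid transport protein, Tm7sf3 (0.93) and Wdfy1 (0.92). Slco2a1 and Slco3a1 had lower ones, with Sept11 (0.85), Wbscr25 (0.84) and Gimd1 (0.84) for the first and Bcl2a1b (0.87), Kntc1 (0.85) and Slc15a3 (0.84) for the second.

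Other hepatic carriers held sex and strain differences as well. For the list counts here and below, the shares of all genes called were 6.34% for sex in B6 and 6.90% in C3. For strain they were 9.40% in females and 9.64% in males. Of 9 tested genes for uptake at the sinusoidal membrane, 1 was called higher and 1 lower in females in B6, and 1 higher and 3 lower in C3. Slc22a27, of the organic anion transporter family, was higher in females (log2 fold change 4.62 in B6 and 8.92 in C3, where males had at most 6 counts; edgeR adjusted p = 5.5e-08 and 9.8e-10) and its relative Slc22a28 lower (-2.43 and -4.70, adjusted p = 4.6e-07 and 6.8e-10). Slc22a30 was lower in C3 females than in C3 males (-0.83, adjusted p = 6.0e-07). Between strains, 3 were called in females, Slc22a28 (-1.88), Slc22a7 (1.05) and the amino acid and thyroid hormone carrier Slc16a10 (-0.68), and 1 in males, the phosphate carrier Slc17a1 (0.76).

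Export carriers were split in direction at the canalicular membrane, which faces the bile. Of 8 tested, 2 were called higher in females in each strain, the drug pump Abcb1a (1.59 in B6, 2.66 in C3) and the sterol half-transporter Abcg5 (0.83 and 0.64), and 1 lower, the breast cancer resistance protein Abcg2 (-1.81 and -1.88). C3 females had more Abcb1a than B6 females (1.36), and no canalicular gene was called between strains in males. Of 6 tested carriers that export to the blood, Abcc4 was higher in females in both strains (0.72 and 1.29), and Slc51b in C3 (2.31), which was 0.95 in B6 without being called. Slc51b counts were low, at most 79 per library in C3 females and 19 in C3 males. Abcc6 was lower in C3 in both sexes (-1.09 and -1.09), and Abcc4 lower in C3 males (-0.81).

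Of 21 transcription factors, receptors and other regulators known from bile acid and sex-dependent liver expression, 4 were called higher and 1 lower in females in B6, and 3 higher and none lower in C3. Cux2, a repressor known from female liver, had log2 fold changes of 5.56 and 6.30, and the prolactin receptor gene Prlr 2.21 and 1.29. Bcl6, a repressor known from male liver, was lower in B6 females (-2.44, edgeR adjusted p = 7.1e-04) and was -1.71 in C3 without being called (adjusted p = 0.0084). The estrogen receptor gene Esr1 was higher in females of both strains (1.39 in B6 and 1.01 in C3). Between strains, only Prlr in males was called (0.97).

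Lists of genes that handle prostaglandins and thyroid hormones, both carried by Slco proteins, held 1 call each between the sexes. Of 10 tested genes of prostaglandin metabolism and signalling, Hpgd, which inactivates prostaglandins, was called higher in B6 females (0.76) and none was called in C3 between the sexes. In C3 females compared with B6 females, Hpgd (-1.08) and the cyclooxygenase gene Ptgs1 (-0.54) were lower and the reductase gene Ptgr1 higher (0.82), and none was called in males. Of 8 tested thyroid hormone genes, the deiodinase gene Dio1 was higher in C3 females than in C3 males (2.502) and none was called between the sexes in B6. Crym, a cytosolic thyroid hormone-binding protein, was higher in C3 in both sexes (4.82 and 4.56), and Dio1 was lower in C3 males than in B6 males (-4.31).

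Marker lists of liver cell types gave the following counts beside the member differences. None of the 9 hepatocyte markers was called between sexes, and Apoa1 (0.84 and 0.71) and Cyp2e1 (-0.53, in females) were called between strains. Of 9 pericentral markers, 6 were called lower in C3 in females and 5 in males, among them Slc1a2 (-2.38 and -1.78) and Oat (-1.97 and -1.47), and Cyp1a2 was called lower in C3 females than in C3 males. Among 8 periportal markers, Cyp2f2 was called lower in females in both strains (-0.86 and -0.88) and Hal lower in C3 males (-0.68). Vsig4 was the only one of 8 Kupffer cell markers called higher in females (0.75 and 0.51), while 4 and 3 of them were called lower in C3, in females and males. The summed level of the Kupffer list was 419.5 to 557 TPM in females and 257 to 387 in males of B6, and 283 to 414 in females and 180.1 to 268 in males of C3. Of 8 stellate cell markers only Rgs5 was called, higher in C3 (1.07 and 1.44). Of 5 tested cholangiocyte markers only Sox9 was called, lower in females (-1.42 and -0.84) and higher in C3 females than in B6 females (0.85). None of 5 tested lymphocyte markers was called. By an adjusted p under 0.05 alone, 34.6% of all genes passed for sex in B6 and 40.0% in C3. In B6 and C3, 7 and 5 Kupffer, 5 and 4 stellate and 1 and 4 lymphocyte markers were then higher in females, and none lower. Of the hepatocyte markers, 3 and 6 were lower in females, and 1 was higher in each strain. Of the cholangiocyte markers, none and 2 were higher in females, and 1, Sox9, was lower in each strain. Of the periportal markers, 1 and 2 were higher in females, and 2 and 1 lower. Of the pericentral markers, 2 and 1 were higher in females, and none and 2 lower. Between strains, 32.9% of all genes passed 0.05 in females and 34.5% in males. In females and males, 8 and 6 pericentral, 5 and 5 Kupffer and 1 and 5 lymphocyte markers were then lower in C3, and none higher. Of the stellate markers, 4 and 5 were lower in C3, and 1, Rgs5, was higher in each sex. Of the hepatocyte markers, 3 and 2 were higher in C3, and 1 and none lower. Of the periportal markers, 1 and none were higher, and 2 in each sex lower. Of the cholangiocyte markers, 1 was higher in females and 1 lower in males. The part of cell composition in the member differences was not tested.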

How the data were processed

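Liver RNA from 20 mice was sequenced as paired 125-base reads. The authors deposited 2 gene tables of the whole series. Counts were made by the authors with cutadapt 1.9.1, STAR 2.5.1b (mm9, both strains) and featureCounts of Subread 1.5.0-p1 on RefSeq genes, strand-specific and without multimapping reads. TPM values were derived by the authors from these deposited counts, with the gene length used not given in the sources used here. The headings of the symbol and identifier columns are exchanged in both tables. Members were matched by symbol. The members, the gene lists and the tests were chosen with earlier results of these data known.

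Counts were tested with edgeR 4.0.16 (R 4.3.3), quasi-likelihood, group plus pool, all 20 libraries, after filterByExpr (13704 genes kept) with TMM factors. A call needed an adjusted p under 0.001 and a log2 fold change over 0.5, thresholds taken from the study's methods. Replicates are separate mice. Log2 CPM used a prior count of 2, and fold changes are on that normalized count scale while printed levels are TPM. Intervals cover 95%. On simulated counts for females against males in B6 (13538 genes), 70 of 100 genes changed by 1 log2 unit and 93 of 100 changed by 2 were called, with 1 false call. DESeq2 1.42.0, limma 3.58.1 on log2(TPM + 1) and log2(TPM + 0.1), other normalizations, filters, designs and thresholds, and each library left out in turn were the alternatives. Correlations between members were computed within sex.

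Beside the members, the text names up to 3 called genes of each list with the largest changes in each comparison, called genes within 500 kb of an Slco1 member, the 3 genes most like each member, and Xist and Ddx3y. Pde3a, Gm10400, Slco1a6, Alb and the untested Slco genes were named after their values were seen. Upstream sequences came from the mm9 genome.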

Additional observations from a re-analysis of the deposited data

Results flagged for a closer look

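The sex difference of Slco2a1 differed between the strains by an interaction of -0.48 on the log2 scale (edgeR quasi-likelihood, adjusted p = 0.0147), because it was 0.32 in B6 and -0.16 in C3. It was picked out by the test of the difference itself at 0.05. It did not pass the threshold of 0.001 used for calls, and the adjusted p ranged from 0.00055 (DESeq2) to 0.239 (no pool covariate) over the alternatives. No liver stood apart from the other 4 of its group beyond Dixon's limit in any of the 24 sets of 5 livers (6 members in 4 groups).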

How the results depend on the processing

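The calls of Slco1a1 and Slco1a4 between sexes held in both strains under every alternative and without any 1 library. Dropping the fold threshold and calling at an adjusted p under 0.05 gave 4 members for sex in B6 (34.6% of all genes), 3 for sex in C3 (40.0%), 2 for strain in females (32.9%), 3 for strain in males (34.5%) and 1 for the interaction (2.96%). Leaving out each library gave 2 members for sex in B6, 2 to 3 for sex in C3, 0 for strain in females, 0 to 1 for strain in males and 0 for the interaction. Of 324 fold changes under other settings 295 kept direction and side of the threshold and 20 changed sign. The other 9 were newly called, all by the looser rule of an adjusted p under 0.05 alone. Of 600 with a library left out, 556 kept direction and side of the threshold, 5 newly passed it and 39 changed sign. No fold change that changed sign had a size above 0.157 or an adjusted p under 0.533. The sign changes were the following. For Slco2a1, C3 over B6 in females (0.0048) became -0.000998 with DESeq2, -0.0032 with RLE factors, -0.0298 with upper-quartile factors, -0.0079 with a filter of 1 CPM in 5 libraries, -0.00090 without the pool covariate, -0.0026 with only the compared groups, and -0.0626 and -0.0650 with limma on TPM (pseudocounts 1 and 0.1). For Slco1a4, C3 over B6 in females (-0.06) became 0.0326 without the pool covariate, and in males (0.0069) -0.0254 with upper-quartile factors, -0.0728 without the pool covariate, -0.0343 with only the compared groups, and -0.0536 and -0.0564 with limma on TPM. Its interaction became 0.105 without the pool covariate. The Slco2b1 interaction became -0.00040 with RLE factors, -0.0031 without a filter and -0.0082 with the 1 CPM filter. Values without 1 library ran from -0.0159 to 0.181 for Slco3a1 between sexes in C3. For C3 over B6 they ran from -0.0742 to 0.311 for Slco1a1 in females, -0.288 to 0.133 for Slco1a4 in females, -0.0415 to 0.0583 for Slco2a1 in females and -0.123 to 0.147 for Slco1a4 in males. For the interaction they ran from -0.308 to 0.157 for Slco1a4, -0.0298 to 0.0524 for Slco2b1 and -0.132 to 0.0601 for Slco3a1. The cause of these sign changes was not tested. On log2(TPM + 1) the median over all genes shifted by 0.11 in B6 and 0.10 in C3 toward females, relative to which the shifts of the members are to be read, and upper-quartile factors and TPM moved the share of calls higher in females from 50.9% to between 64.3% and 71.6% in B6 and from 59.6% to between 70.0% and 77.4% in C3. Without the pool covariate 421 genes were called for sex in B6, 482 for sex in C3, 815 for strain in females and 20 for the interaction, in place of 869, 945, 1288 and 55. Fitting only the compared groups gave 625 for sex in C3. For the interaction DESeq2 gave 181, and edgeR gave 32, 34 and 33 without B6 male replicate 1, C3 female replicate 1 or C3 male replicate 4.

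Replicate numbers did not pair the livers, since with pool removed the correlation of same-numbered livers fell to -0.04, -0.20, -0.08 and -0.19 at its lowest in the 4 comparisons. With the replicate block the members called stayed at 2, 2, 0, 0 and 0, C3 over B6 in males of Slco1a4 became -0.0896 and its interaction 0.0295. The depth limits Slco3a1, with 79 to 200 counts per library, and Gm6614, with at most 17.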
